A study of Mus musculus with 24 samples.

Results

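Cgas, Ddx41, Tmem173 (also known as Sting1), Tbk1 and Ikbke encode sensors of DNA in the cytosol, the adaptor below them and the kinases that the adaptor engages. They were found by symbol among the Ensembl gene rows of the counts, where they are 5 of 47937 genes. RNA was sequenced from cultured mouse embryonic fibroblasts (MEFs) lacking increasing numbers of the 6 SET-domain enzymes that methylate histone H3 at lysine 9 (H3K9 KMTs), with 3 libraries in each of 8 conditions. The study asked which enzymes hold up heterochromatin and its silencing, and built mutant lines stepwise in 2 series.

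Every condition carries a conditional Eset1 allele and a Cre recombinase that becomes active with 4-hydroxytamoxifen (4-OHT) and then removes exons of Eset1. WT is the parent line without 4-OHT, and E1 is the same line after 4-OHT. E2 is a clone of the parent line with a frameshift in Eset2, without 4-OHT, and E1E2 is that clone after 4-OHT. In the first series, E1 S1S2 has Suv39h1 and Suv39h2 disrupted, and 6KO1 has Eset2, G9a and Glp disrupted in addition, both after 4-OHT. In the second series, E1E2 G9Gl was made from the Eset2-mutant clone by disrupting G9a and Glp, and 6KO2 by then disrupting Suv39h1 and Suv39h2, again both after 4-OHT. The other genes were disrupted with CRISPR/Cas9, each line is 1 clone, and after the disruptions a Cre construct with puromycin selection was introduced again. What belongs to the mutations, to the clone and to its history therefore cannot be told apart, nor can the deletion of Eset1 and the 4-OHT treatment itself. A label field names 4-OHT for all samples, while the titles mark WT and E2 as controls, and the titles were followed.

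As background, cGAS binds double-stranded DNA in the cytosol and makes cyclic GMP-AMP (cGAMP), a second messenger that binds STING, the product of Tmem173, at the endoplasmic reticulum. STING then moves to the Golgi and engages TBK1 and the related kinase IKKepsilon (Ikbke), which phosphorylate IRF3 and also act on the NF-kappaB pathway, and interferon beta and interferon-stimulated genes follow. In fibroblasts this route answers to DNA viruses and to self DNA outside the nucleus, for example in micronuclei, and the enzymatic step and the phosphorylation are not visible in RNA levels.

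The total counts of the 3 libraries were 27646204, 29088641 and 34986131 in WT and 30389949, 31406498 and 35916678 in E1, from the lowest to the highest. They were 32003756, 32544580 and 37419816 in E1 S1S2, and 30047275, 33788035 and 33801466 in 6KO1. They were 25698753, 25896373 and 33964221 in E2, and 27782114, 29405107 and 31064315 in E1E2. They were 24737307, 27549402 and 29778184 for E1E2 G9Gl, and 27298706, 29022584 and 30922283 for 6KO2. The lowest level of a member in a library was 272 normalized counts, for Ikbke in E1. The errors given as SD or SE hold counting noise as well as the spread between libraries. Levels are normalized read counts, the deposited counts scaled with TMM factors to a mean effective library size of 25325100, and mean ± SD is over n = 3 libraries. Fold changes are log2 values from edgeR's quasi-likelihood test, fitted over all 24 libraries and 18565 genes and adjusted by Benjamini-Hochberg over those genes, and a gene passed the test at an adjusted p of at most 0.01. The labels do not say how the replicates were made, so the p-values measure the spread between these samples. The 7 comparisons with WT share the same 3 WT libraries.

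WT replicate 2 stood apart from the other libraries. Its median absolute log2 distance from the other WT libraries was 0.297, against 0.071 to 0.205 for the other 23 libraries, and the chi-square per gene between it and WT replicates 1 and 3 was 68.7 and 57.3, against at most 25.4 between any other replicates of a condition. Results that were refitted without it and changed are given with and without it. The counts and medians of single gene lists, and the counts of marker and targeted genes, were not refitted with libraries left out. No replicates agreed within sampling noise, the lowest chi-square per gene being 2.24 where sampling noise gives 1.

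RNA of the targeted genes was read as a check of the labels. Of the 6, 5 were lower than WT for 6KO1, where 30.3% of all tested genes were lower, and all 6 for E1E2 G9Gl (28.3%) and 6KO2 (25%), with 0 higher. For E1 1 was lower (6.6%) and 0 higher, for E1 S1S2 3 lower (21.9%) and 2 higher (19.9%), for E2 3 lower (14.4%) and 1 higher (12.5%), and for E1E2 2 lower (16.9%) and 1 higher (16.3%). Setdb1, the gene symbol of Eset1, had a log2 difference from WT of -0.57 for E1, -0.31 for E2 and -0.31 for E1E2, so its RNA does not tell E2 from E1E2. In E1 S1S2, where Suv39h2 is targeted, its RNA was up by 0.76, and it was lower by the test in both E1E2 G9Gl and 6KO2. A frameshift, or the loss of a few exons, can leave RNA that is still counted, and all libraries are named by their labels.

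The label of MEFs was checked against marker genes. Of 10 fibroblast markers 9 were tested, Vim being the most abundant, and the normalized counts of all 10 together averaged 160423 for WT, 131677 for E1, 124365 for E1 S1S2, 79187 for 6KO1, 143245 for E2, 112642 for E1E2, 196734 for E1E2 G9Gl and 103288 for 6KO2. The number of the 9 that were lower than WT was 4 for E1, 6 for E1 S1S2, 8 for 6KO1, 3 for E2, 6 for E1E2, 2 for E1E2 G9Gl and 6 for 6KO2, and the number that were higher was 1, 1, 0, 1, 1, 4 and 1. Of all tested genes, 6.6% were lower and 6.72% higher for E1, 21.9% and 19.9% for E1 S1S2, and 30.3% and 35.9% for 6KO1. These shares were 14.4% and 12.5% for E2, 16.9% and 16.3% for E1E2, 28.3% and 30.9% for E1E2 G9Gl, and 25% and 29.5% for 6KO2. The marker counts are to be read beside them. Leukocyte markers, 8 in all, summed to 103 counts for WT, 99.1 for E1, 132 for E1 S1S2, 583 for 6KO1, 66.3 for E2, 121 for E1E2, 836 for E1E2 G9Gl and 157 for 6KO2, with Cd68 the most abundant over all libraries. Of these, Adgre1 had 0 counts in every library and Ptprc had 0 counts in WT, E1, E1 S1S2 and E2, while in E1E2 G9Gl Itgam averaged 507 normalized counts and Ptprc 47.7. Of the 5 leukocyte markers tested, 4 were higher than WT in 6KO1 and in E1E2 G9Gl, 3 in 6KO2, 1 in E1 and 0 in E1 S1S2, E2 and E1E2, while 1 was lower in E2. Epithelial markers, 5 in all and led by Krt8, summed to 39.3 counts in WT and 677 in 6KO1, and of the 3 tested 2 were higher and 1 lower than WT for 6KO1, E1E2 G9Gl and 6KO2 alike, 1 and 0 for E1, 1 and 1 in E1 S1S2 and in E2, and 2 and 0 in E1E2. Endothelial markers, 4 in all and led by Cdh5, summed to 13.3 counts in WT, 128 in 6KO1 and 125 in 6KO2, and of the 4, all tested, 1 was higher than WT for E1 S1S2, 3 for 6KO1, 2 for E1E2 G9Gl, 4 for 6KO2 and 0 for the others. The part of these markers in the results below was not tested. In bulk RNA, fewer cells that express a gene and less of its RNA per cell cannot be told apart.

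Cgas (ENSMUSG00000032344) lies on chromosome 9 of GRCm38 from 78430526 to 78443237 on the minus strand and encodes the sensor itself. Its normalized counts in replicates 1, 2 and 3 were 831, 794 and 875 in WT and 1133, 1104 and 1039 in E1. In the first series they were 975, 1024 and 916 in E1 S1S2 and 1034, 961 and 997 in 6KO1. Each of these mutant libraries lay above each WT library. In E2 the counts were 967, 891 and 1038, and in E1E2 they were 1286, 1165 and 1258. In the second series they were 679.6, 695 and 698 for E1E2 G9Gl and 1001, 961 and 1054 for 6KO2. E1E2 G9Gl was the only condition whose libraries lay below all WT libraries. From the highest mean to the lowest the order was E1E2 (1236 ± 63.3), E1 (1092 ± 48.0), 6KO2 (1005 ± 46.3), 6KO1 (997 ± 36.5), E1 S1S2 (972 ± 54.0), E2 (965 ± 74.0), WT (833 ± 40.8) and E1E2 G9Gl (691 ± 9.91). The ranges of mean ± SD overlapped between 6KO2, 6KO1, E1 S1S2 and E2 as neighbours and between E1 and 6KO2, while E1E2 lay apart from E1, WT from E2 and E1E2 G9Gl from WT.

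Against WT, Cgas rose in E1, by 0.39 (SE 0.064, adjusted p = 6.9e-05), and most in E1E2, by 0.57 (SE 0.064, adjusted p = 1.5e-07). It also rose by 0.26 (adjusted p = 8.8e-04) in 6KO1, by 0.27 (adjusted p = 7.9e-04) in 6KO2 and by 0.22 (adjusted p = 0.00530) in E1 S1S2, and changed by -0.27 (SE 0.065, adjusted p = 8.6e-04) in E1E2 G9Gl. Its difference in E2, 0.21 (adjusted p = 0.0118), did not pass the test, but passed with DESeq2 (0.22, adjusted p = 0.00624), RLE factors (0.22, 0.00926), TMM factors from genes and repeats (0.22, 0.00657) and only genes of a mean above 100 counts (0.24, 0.00603). The E1 S1S2 call was lost without WT replicate 1 (0.22, adjusted p = 0.0126), WT replicate 2 (0.19, 0.0209), E1 S1S2 replicate 1 (0.22, 0.0159) or E1 S1S2 replicate 2 (0.18, 0.0348), and the E2 difference passed without WT replicate 3 (0.25, 0.00872) or E2 replicate 2 (0.27, 0.00361). When only the 6 libraries of a comparison were fitted, Cgas passed in E1E2 and in no other mutant, with values that kept their sign, and without a filter on low counts the calls in E1 S1S2, 6KO1 and 6KO2 were lost (adjusted p from 0.0101 to 0.0189). With only genes of a mean above 100 counts the value in E1E2 G9Gl was -0.20 (adjusted p = 0.0119).

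Ddx41 (ENSMUSG00000021494), on chromosome 13 from 55530410 to 55536658 on the minus strand, encodes a DEAD-box helicase that also works in splicing and has been described as a sensor of DNA upstream of STING. Its counts were 989, 954 and 941 in WT and 1053, 1028 and 1112 in E1. They were 874, 828 and 859.8 in E1 S1S2 and 949, 946 and 935 in 6KO1. E1 lay above WT in each library, and E1 S1S2 below it. In E2 they were 854, 838 and 908 and in E1E2 985, 895 and 984. In E1E2 G9Gl they were 633, 634 and 705, and in 6KO2 857, 901 and 798. E1E2 G9Gl was again lowest in every library. The means ran from E1 (1064 ± 43.4) through WT (962 ± 24.6), E1E2 (955 ± 52.0), 6KO1 (943 ± 7.33), E2 (867 ± 36.7), E1 S1S2 (854 ± 23.5) and 6KO2 (852 ± 51.9) to E1E2 G9Gl (657 ± 41.1). Neighbours from WT to 6KO1 and from E2 to 6KO2 did not differ beyond their SD. Ddx41 passed the test against WT in E1E2 G9Gl, at -0.55 (SE 0.061, adjusted p = 3.0e-08), and in no other mutant. Its values elsewhere lay between -0.17 in 6KO2 and 0.15 in E1, and the 6KO2 value passed without 6KO2 replicate 2 (-0.22, adjusted p = 0.00744) or without E1E2 G9Gl replicate 3 (-0.19, adjusted p = 0.00754), and with TMM factors from genes and repeats together (-0.21, adjusted p = 0.00395).

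Tmem173 (ENSMUSG00000024349), on chromosome 18 from 35733679 to 35740554 on the minus strand, encodes STING. Its counts were 636, 807 and 705 in WT and 816, 744 and 914 in E1. In the first series they were 813, 766 and 810.4 in E1 S1S2 and 926, 944 and 944 in 6KO1. WT replicate 2 lay among the E1 and E1 S1S2 libraries, higher than 2 of these 6, and WT replicates 1 and 3 were lower than each of them. In E2 the counts were 960.0, 1029 and 910.1, and in E1E2 892, 872 and 911. In E1E2 G9Gl they were 690.4, 719 and 685, and in 6KO2 449, 462 and 439. The 6KO lines, in which the same 6 genes are disrupted, stood apart, with 6KO1 above and 6KO2 below every WT library. The order was E2 (966 ± 59.5), 6KO1 (938 ± 10.3), E1E2 (892 ± 19.1), E1 (825 ± 85.0), E1 S1S2 (796 ± 26.1), WT (716 ± 86.1), E1E2 G9Gl (698 ± 18.3) and 6KO2 (449.8 ± 11.7). Only 6KO1 and E1E2, and E1E2 G9Gl and 6KO2, were neighbours whose ranges of mean ± SD did not overlap.

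Tmem173 rose against WT in E2, by 0.43 (SE 0.075, adjusted p = 8.6e-05), in 6KO1, by 0.39 (SE 0.075, adjusted p = 7.3e-05), and in E1E2, by 0.31 (SE 0.076, adjusted p = 0.00162). In 6KO2 it changed by -0.67 (SE 0.079, adjusted p = 1.1e-07). The differences in E1, 0.20 (adjusted p = 0.0605), in E1 S1S2, 0.15 (adjusted p = 0.0952), and in E1E2 G9Gl, -0.038 (adjusted p = 0.686), did not pass the test. Without WT replicate 2, those in E1 (0.30, adjusted p = 0.00319) and E1 S1S2 (0.25, adjusted p = 0.00539) passed and that in E1E2 G9Gl became 0.057 (adjusted p = 0.508), and without WT replicate 1 the value in E1E2 was 0.24 and no longer passed (adjusted p = 0.0141). In fits of only 6 libraries the calls in E2 (0.46, adjusted p = 0.0185) and E1E2 (0.33, adjusted p = 0.0262) were lost.

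**Figure D1:**
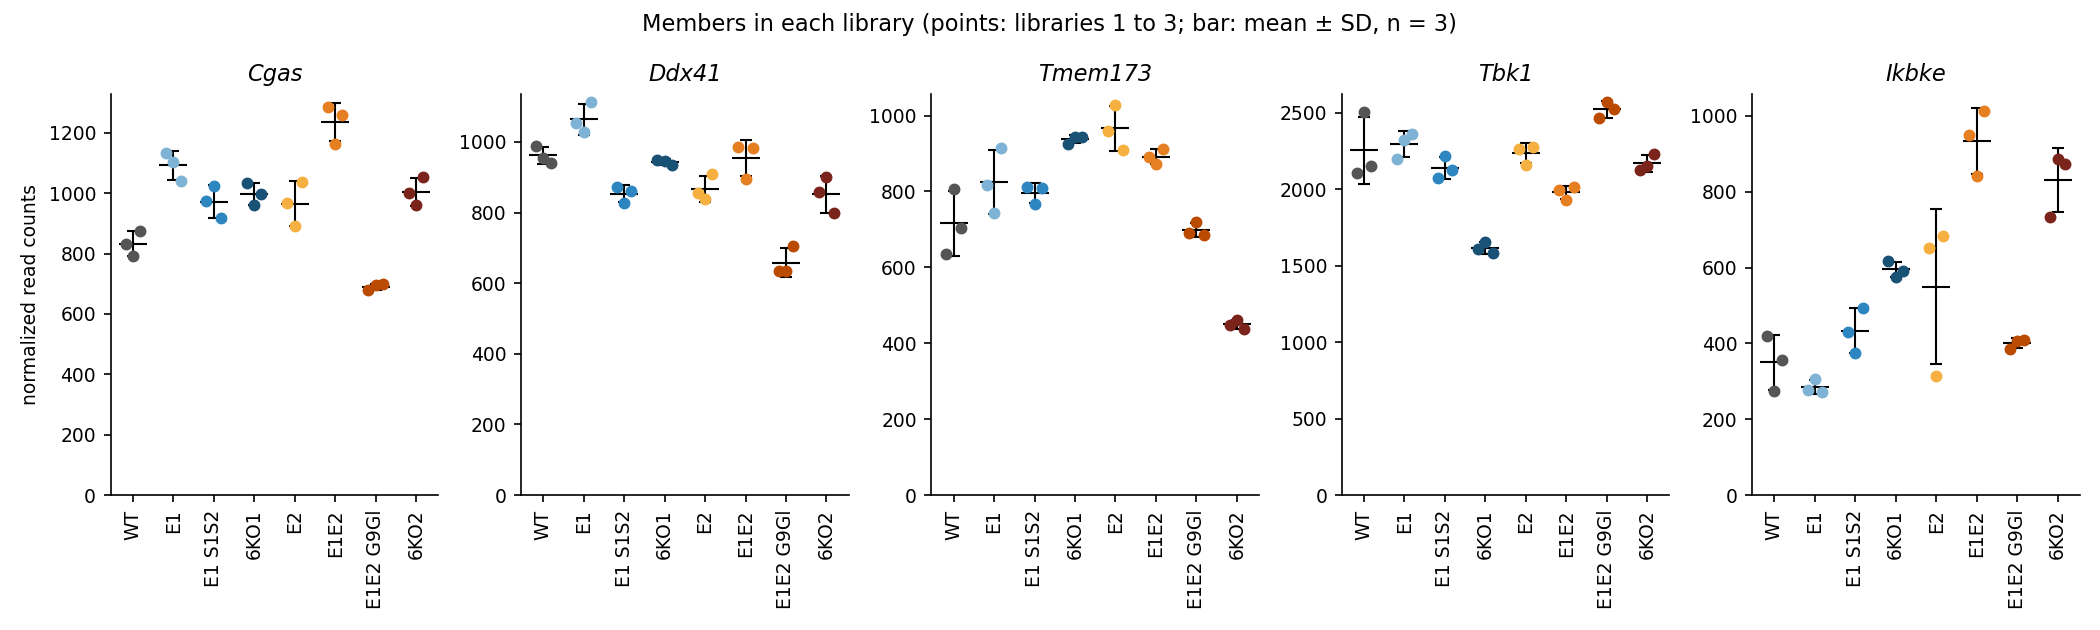
Normalized read counts of the 5 genes in each library, by condition, with the mean and SD of 3 libraries as black bars and each axis starting at 0. Ikbke has the highest ratio between condition means, 3.28, with libraries from 272 in E1 to 1013 in E1E2, and Tmem173 is lowest in 6KO2, at 439 to 462.

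Tbk1 (ENSMUSG00000020115), on chromosome 10 from 121546455 to 121586787 on the minus strand, encodes the kinase that phosphorylates STING and IRF3. Its counts were 2105, 2507 and 2154 in WT and 2200.0, 2322 and 2361 in E1. In E1 S1S2 they were 2069.8, 2214 and 2126, and in 6KO1 1609, 1656 and 1580.3. Each 6KO1 library was lower than each library of the other conditions. In E2 the counts were 2265, 2160.4 and 2278 and in E1E2 1996, 1929 and 2013. In E1E2 G9Gl they were 2466, 2573 and 2527, and in 6KO2 2125, 2150.3 and 2229. The SD of WT, the largest of the 8, came from replicate 2. The order was E1E2 G9Gl (2522 ± 53.6), E1 (2294 ± 83.9), WT (2255 ± 219), E2 (2234 ± 64.4), 6KO2 (2168 ± 54.1), E1 S1S2 (2136 ± 72.5), E1E2 (1979 ± 44.4) and 6KO1 (1615 ± 38.4), and the neighbours from E1 to E1 S1S2 did not differ beyond their SD.

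Tbk1 was lower than WT in 6KO1, by the test, at -0.48 (SE 0.056, adjusted p = 7.0e-08), and in E1E2 at -0.19 (SE 0.056, adjusted p = 0.00880). The E1E2 call was lost in 18 of the 24 fits with a library left out, and kept without WT replicate 1 or 3, E1 replicate 1 or 3, E1 S1S2 replicate 2 or E2 replicate 2. Over these 24 fits the value was between -0.24 and -0.11, the latter without WT replicate 2 (adjusted p = 0.0759). In E1E2 G9Gl the value was 0.16 (adjusted p = 0.0147), which did not pass, while it passed without WT replicate 2 (0.24, adjusted p = 7.2e-05) or without 6KO1 replicate 1 (0.17, 0.00837), 2 (0.17, 0.00797) or 3 (0.17, 0.00858). It passed as well with DESeq2 (0.19, adjusted p = 0.00124), RLE factors (0.19, 0.00360) and only genes of a mean above 100 counts (0.23, 1.4e-04). In E1, E1 S1S2, E2 and 6KO2 the values were 0.024, -0.078, -0.014 and -0.057, with adjusted p-values of 0.828, 0.252, 0.889 and 0.384. Values this near 0 change sign with single libraries, and without WT replicate 2 those in E1 S1S2, E2 and 6KO2 were 0.0061, 0.069 and 0.025.

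Ikbke (ENSMUSG00000042349), on chromosome 1 from 131254343 to 131279606 on the minus strand, encodes IKKepsilon, the paralog of TBK1, whose gene is known to respond to NF-kappaB. Its counts were 419, 274 and 357 in WT and 277, 305 and 272 in E1. In E1 S1S2 they were 431, 375 and 494, and in 6KO1 617, 576 and 592. WT replicate 2 was the lowest WT library here, and 6KO1 lay above every WT library. In E2 the counts were 652, 315 and 683, and in E1E2 949.7, 841 and 1013. In E1E2 G9Gl they were 385, 407 and 408, and in 6KO2 733, 886 and 873. E2 replicate 2 fell within the WT range, while E2 replicates 1 and 3 were higher than every 6KO1 library. The order was E1E2 (935 ± 86.8), 6KO2 (831 ± 84.6), 6KO1 (595 ± 20.7), E2 (550.0 ± 204), E1 S1S2 (433 ± 59.4), E1E2 G9Gl (400.0 ± 12.9), WT (350.0 ± 72.7) and E1 (285 ± 17.8), and of these neighbours 6KO2 and 6KO1 alone differed beyond their SD.

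Ikbke rose against WT by 1.42 (SE 0.19, adjusted p = 1.5e-06) in E1E2 and by 1.25 (SE 0.19, adjusted p = 4.0e-06) in 6KO2, the only changes against WT of a member by a fold of at least 2. It rose by 0.77 (SE 0.19, adjusted p = 8.0e-04) in 6KO1. In E2 it passed at 0.64 (SE 0.19, adjusted p = 0.00960), although the libraries of E2 and WT overlapped. That call was lost in 22 of the 24 fits with a library left out, for example without WT replicate 2 (0.49, adjusted p = 0.0591), and kept without WT replicate 1 or E2 replicate 2. The value was between 0.45 and 0.94 over these fits, 0.94 without E2 replicate 2, and in a fit of only the 6 libraries it did not pass (0.67, adjusted p = 0.127). The values in E1, -0.29 (adjusted p = 0.332), in E1 S1S2, 0.31 (adjusted p = 0.176), and in E1E2 G9Gl, 0.20 (adjusted p = 0.382), did not pass. Without WT replicate 2 and E2 replicate 2 together, a fit chosen after seeing the data, the E1 value was -0.45 and passed (adjusted p = 0.00373).

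The promoters of both kinases are shown because their RNAs moved apart in E1E2 and 6KO1. The sequences are from RefSeq on GRCm38.p6 and run from 250 bases before the start site to 50 after it. They are written 5′ to 3′ on the strand of the gene, with each CpG dinucleotide in capitals. The first is chr1:131279514-131279813 on the minus strand and the second chr10:121586745-121587044 on the minus strand.
Ikbke: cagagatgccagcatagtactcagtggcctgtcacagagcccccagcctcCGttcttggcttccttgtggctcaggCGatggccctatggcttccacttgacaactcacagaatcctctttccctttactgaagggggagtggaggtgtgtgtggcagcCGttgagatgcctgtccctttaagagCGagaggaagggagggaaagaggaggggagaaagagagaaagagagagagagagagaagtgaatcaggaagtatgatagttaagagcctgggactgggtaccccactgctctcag
Tbk1: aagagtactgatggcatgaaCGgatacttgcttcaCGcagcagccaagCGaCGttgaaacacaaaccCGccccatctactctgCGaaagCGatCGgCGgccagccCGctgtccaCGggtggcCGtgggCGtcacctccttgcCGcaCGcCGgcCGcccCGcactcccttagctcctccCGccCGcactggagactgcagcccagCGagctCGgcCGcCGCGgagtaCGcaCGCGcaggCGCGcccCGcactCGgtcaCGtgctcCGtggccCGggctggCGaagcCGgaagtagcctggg
The Ikbke window holds 4 CpG dinucleotides at 54% G and C, and 38% of the 32851 windows of the same length hold as many or fewer. The Tbk1 window holds 37 at 69% G and C, as many or more than 95% of windows. The windows of Cgas and Ddx41 hold 16 (68.6% of windows have as many or fewer) and 25 (83.1%), the median of all windows is 7, and CpG counting was chosen after the expression values were seen. Of the 5 members 4 were matched, and Tmem173 is named here without a sequence. On both strands, none of the 4 windows held the interferon-stimulated response element core (GAAA, any 2 bases, GAAA), the gamma-activated sequence TTCNNNGAA or an NF-kappaB site, which 3.44%, 8.3% and 4.51% of windows hold. That says only that these letters are not in these 300 bases.

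The members that passed are counted here beside the share of all 18565 tested genes. In E1 1 of 5 was higher and 0 lower, where 6.72% of all tested genes were higher and 6.6% lower. In E1 S1S2 it was 1 higher and 0 lower, with 19.9% and 21.9% of all genes. In 6KO1 it was 3 higher and 1 lower, with 35.9% and 30.3%. In E2 it was 2 higher and 0 lower, with 12.5% and 14.4%, and in E1E2 3 higher and 1 lower, with 16.3% and 16.9%. In E1E2 G9Gl it was 0 higher and 2 lower, with 30.9% and 28.3%, and in 6KO2 2 higher and 1 lower, with 29.5% and 25%. By the stricter rule, which adds a fold of at least 2, 1 member passed in E1E2, with 8.73% of all genes, and 1 in 6KO2, with 20.7%. None of the 5 passed it in E1, with 4.26%, E1 S1S2, with 11.8%, 6KO1, with 30.9%, E2, with 6.11%, or E1E2 G9Gl, with 25.2% of all genes. Of the 35 pairs of a member and a mutant, 12 were higher, 5 lower and 18 did not pass, and in 21 all libraries of the mutant lay on 1 side of all WT libraries. The share of all tested genes whose libraries lie apart in this way was not computed, so the 21 is a description only. Apart from Ikbke in E1E2 and 6KO2, the members that passed moved by a fold of less than 2.

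**Figure D2:**
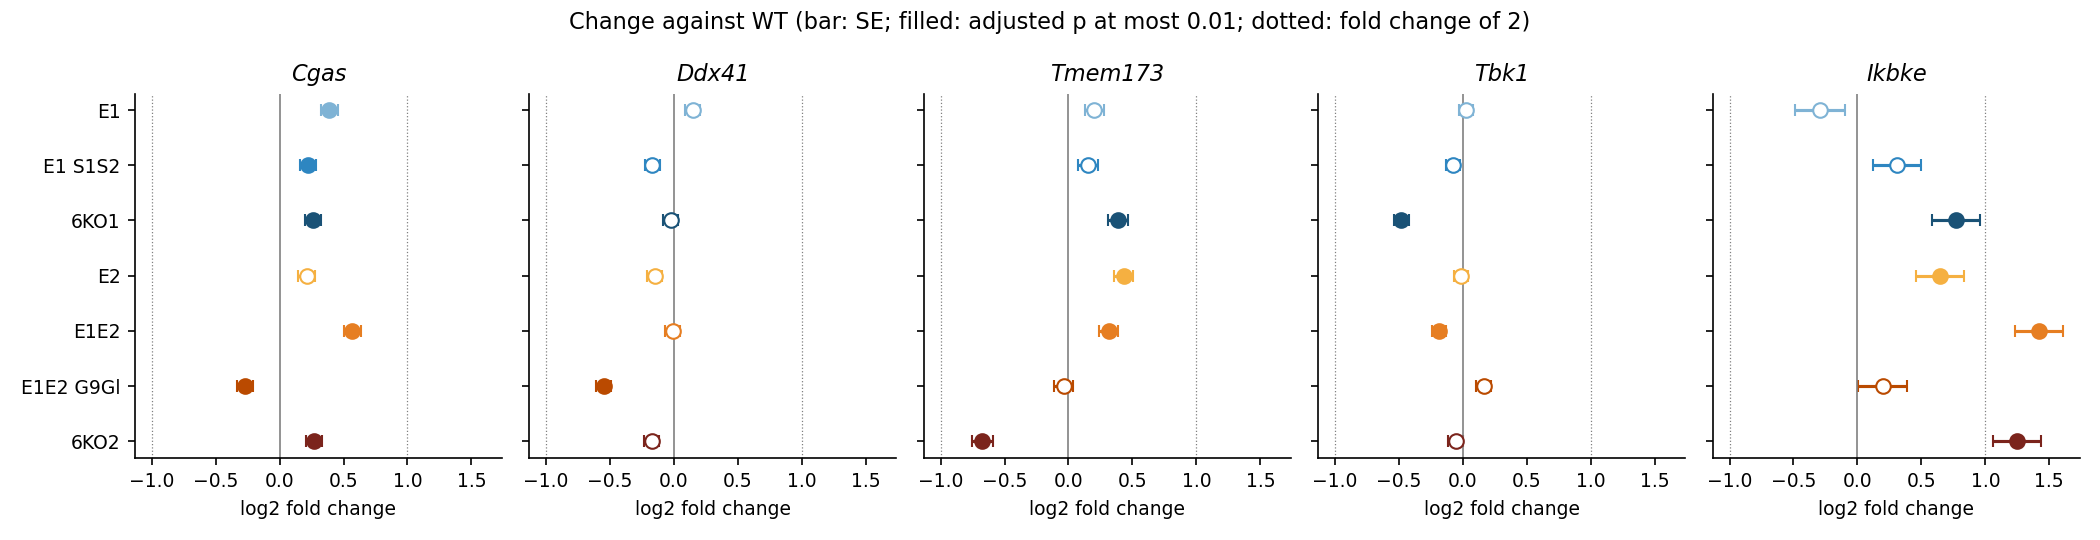
Log2 fold change of each gene in the 7 mutant conditions against WT, with the SE as bars, filled points for an adjusted p of at most 0.01 (edgeR) and dotted lines at a fold change of 2. Ikbke in E1E2 (1.42) and 6KO2 (1.25) lies beyond the dotted line, and Tmem173 points to opposite sides in 6KO1 (0.39) and 6KO2 (-0.67).

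The steps by which the lines were built, and the effect of 4-OHT within a line, were compared in the same fit. The effect of 4-OHT in the parent line is E1 against WT, given above, where Cgas was the member that passed. From E1 to E1 S1S2, with the loss of the Suv39h enzymes, 1 of 5 members passed, against 33.5% of all genes: Ddx41 changed by -0.32 (SE 0.059, adjusted p = 1.1e-04). Ikbke, at 0.61 (adjusted p = 0.0128), missed the threshold there, and passed without WT replicate 1 (0.61, 0.00974), WT replicate 2 (0.61, 0.00612), E2 replicate 2 (0.61, 2.6e-04) or E2 replicate 3 (0.61, 0.00882). It passed as well with DESeq2 (0.62, adjusted p = 0.00615) and in a fit of only the 6 libraries (0.62, adjusted p = 3.8e-04). From E1 S1S2 to 6KO1, 2 of 5 passed, against 53.3% of all genes. Tbk1 changed by -0.40 (SE 0.056, adjusted p = 1.6e-06), and Tmem173 rose by 0.24 (SE 0.074, adjusted p = 0.00838), a call lost in 18 of the 24 fits with a library left out. It was kept without WT replicate 1 or 2, E1 replicate 2 or 3 or E2 replicate 2 or 3, and the value was between 0.20 and 0.25 over all 24 fits. The libraries of 6KO1 lay above those of E1 S1S2 for both Tmem173 and Ikbke, and Ikbke differed by 0.46 (adjusted p = 0.0328), which did not pass but did without E2 replicate 2 (0.45, adjusted p = 0.00150).

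From E2 to E1E2, the 4-OHT effect in the Eset2-mutant clone, 2 of 5 passed, against 11.9% of all genes, with Cgas higher by 0.36 (SE 0.063, adjusted p = 2.3e-04) and Ikbke by 0.78 (SE 0.18, adjusted p = 0.00323). Tbk1, at -0.17 (adjusted p = 0.0308), did not pass with all libraries but did without WT replicate 2 (-0.17, adjusted p = 0.00291) and with only genes of a mean above 100 counts (-0.18, adjusted p = 0.00814). The Ikbke call was lost without E2 replicate 2 (0.49, adjusted p = 0.0110), E1E2 replicate 1 (0.77, 0.0128) or E1E2 replicate 3 (0.72, 0.0186), and in a fit of only the 6 libraries (0.77, adjusted p = 0.0400). From E1E2 to E1E2 G9Gl all 5 passed, against 53.4% of all genes. Ikbke changed by -1.23 (SE 0.19, adjusted p = 4.4e-06), Cgas by -0.84 (SE 0.065, adjusted p = 9.0e-11), Ddx41 by -0.54 (SE 0.061, adjusted p = 5.0e-08) and Tmem173 by -0.35 (SE 0.076, adjusted p = 3.2e-04), while Tbk1 rose by 0.35 (SE 0.056, adjusted p = 1.0e-05). From E1E2 G9Gl to 6KO2 all 5 passed again, against 43.6% of all genes, and 4 of them turned back. Ikbke rose by 1.05 (SE 0.19, adjusted p = 4.7e-05), Cgas by 0.54 (SE 0.065, adjusted p = 2.4e-07) and Ddx41 by 0.38 (SE 0.061, adjusted p = 1.6e-05), and Tbk1 changed by -0.22 (SE 0.056, adjusted p = 0.00223), a call lost without 6KO2 replicate 1 (-0.20, adjusted p = 0.0126). Tmem173 changed further, by -0.63 (SE 0.079, adjusted p = 4.2e-07). The last 2 steps share the E1E2 G9Gl libraries, which lie below both neighbours for Cgas, Ikbke and Ddx41 and above both for Tbk1.

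Between the 6KO lines, 2 of 5 members passed, against 49.2% of all genes. Tmem173 was higher in 6KO1 than in 6KO2 by 1.06 (SE 0.078, adjusted p = 6.8e-11), and Tbk1 differed by -0.42 (SE 0.057, adjusted p = 9.6e-07). Cgas had -0.012 (SE 0.063), and Ikbke, at -0.48 (adjusted p = 0.0247), did not pass with all libraries but did without E2 replicate 2 (-0.48, adjusted p = 8.1e-04). The order in which the genes were disrupted and the clone differ together between these lines.

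The response to 4-OHT in the Eset2-mutant clone was set against that in the parent line as a difference of differences. For Ikbke this was 1.07 (SE 0.27, adjusted p = 0.00707), and it was the only member of 5 to pass, against 8.89% of all genes. Ikbke had -0.29 in E1 against WT, which did not pass, and 0.78 in E1E2 against E2. The difference stayed between 0.78 and 1.26 with any library left out. It did not pass without WT replicate 1 (0.93) or 3 (1.05), E1 replicate 1 (1.05), 2 (1.12) or 3 (1.04), E1E2 replicate 1 (1.06) or 3 (1.01), or E1E2 G9Gl replicate 3 (1.07). Tmem173, at -0.32 (adjusted p = 0.0449), and Tbk1, at -0.20 (adjusted p = 0.102), did not pass with all libraries but did without WT replicate 2, at -0.42 (adjusted p = 0.00255) and -0.28 (adjusted p = 0.00205). Cgas had -0.032, and 0.0033 without WT replicate 2.

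**Figure D3:**
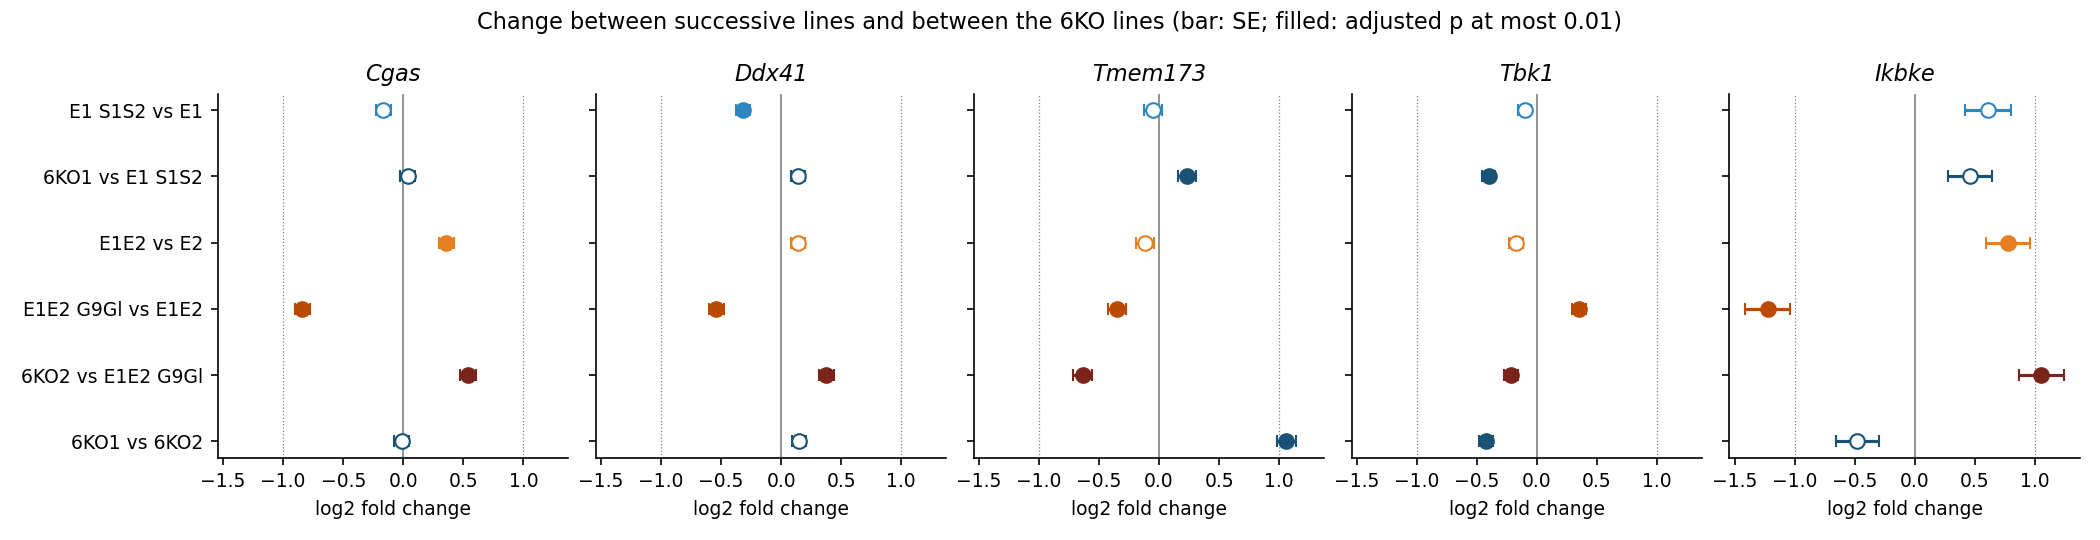
Log2 fold change of each gene between successive lines and between the 6KO lines, with the SE as bars and filled points for an adjusted p of at most 0.01 (edgeR). All 5 genes passed from E1E2 to E1E2 G9Gl and from there to 6KO2, and Ikbke, Cgas, Ddx41 and Tbk1 turned from 1 side of 0 to the other between these steps.

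Levels of different genes were compared per length of transcript. Averaged over the 24 libraries, Tbk1 had 21.7 CPM per kilobase of exon, Ddx41 13.1, Tmem173 11.3, Cgas 9.32 and Ikbke 2.40. Per kilobase of the longest protein-coding transcript the levels were 28.1, 16.0, 13.5, 9.50 and 6.65, and the Ikbke level depends most on the choice because its annotated exons span 9018 bases against 3251 in that transcript. The order of these means is the same by either length, but it does not hold within each condition. For 6KO2, Tmem173 had 6.48 per kilobase of exon against 9.62 for Cgas, and by the coding transcript Ikbke had 10.1 against 9.81 for Cgas and 7.72 for Tmem173. For E2, Tmem173 had 13.9 per kilobase of exon against 12.7 for Ddx41. The highest condition mean exceeded the lowest by 3.28 times for Ikbke, 2.15 for Tmem173, 1.79 for Cgas, 1.62 for Ddx41 and 1.56 for Tbk1. The least abundant member thus varied most.

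Because the 2 kinases are paralogs with shared substrates, the ratio of Ikbke to Tbk1, each per base of exon, was followed in each library. It was 0.0863, 0.0474 and 0.0719 in WT and 0.0547, 0.0570 and 0.0499 in E1. It was 0.0902, 0.0734 and 0.101 in E1 S1S2 and 0.166, 0.151 and 0.162 in 6KO1. The 6KO1 libraries were all above those of the other lines named so far. In E2 it was 0.125, 0.0632 and 0.130, and in E1E2 0.206, 0.189 and 0.218. In E1E2 G9Gl it was 0.0677, 0.0686 and 0.0700, and in 6KO2 0.150, 0.179 and 0.170. Tbk1 stayed the more abundant RNA in every library. Against WT, at 0.0685 ± 0.0197, the ratio was 3.07 times as high in E1E2, 2.49 times in 6KO2 and 2.40 times in 6KO1, as ratios of geometric means, each with a two-sided exact permutation p = 0.1, the smallest that 3 libraries against 3 allow, and an adjusted p = 0.233 over the 7 comparisons. It was 1.52 times as high in E2 (exact permutation p = 0.3), 1.31 in E1 S1S2 (exact p = 0.2), 1.03 in E1E2 G9Gl (exact p = 1) and 0.809 in E1 (exact p = 0.4), and without WT replicate 2 the E1E2 G9Gl value became 0.873.

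**Figure D4:**
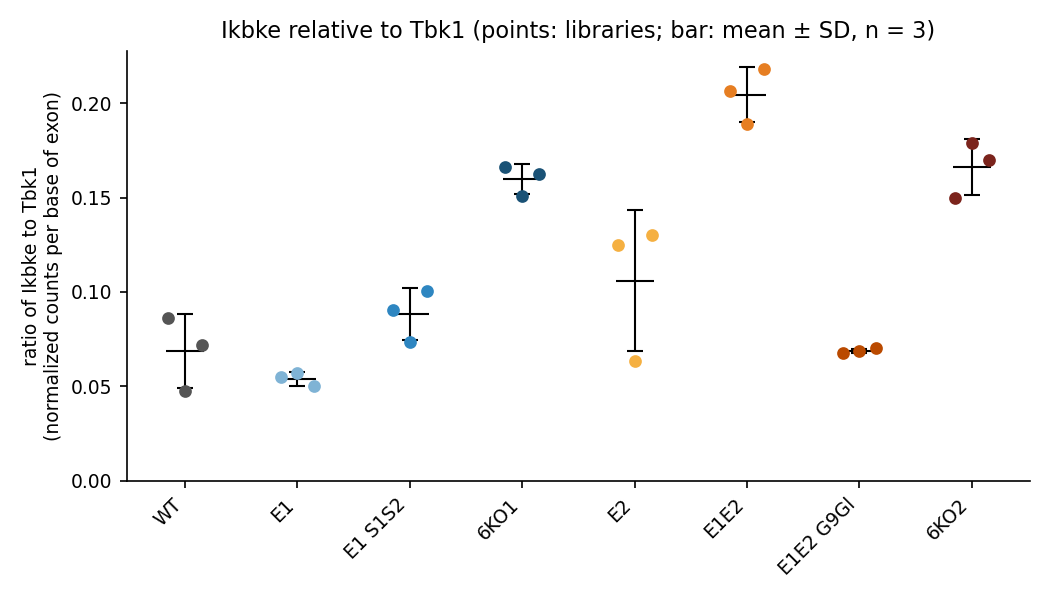
Ratio of Ikbke to Tbk1 in normalized counts per base of exon, in each library, with mean and SD of 3 libraries. The ratio is between 0.150 and 0.218 in 6KO1, E1E2 and 6KO2, and at most 0.101 in WT, E1, E1 S1S2 and E1E2 G9Gl, while the E2 libraries are split.

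The members did not follow a common course over the 24 libraries, which share their conditions and sequencing. The highest Pearson correlation of log2 CPM (counts scaled to library size) between members was 0.70 for Cgas and Ddx41, and the lowest was -0.48 for Cgas and Tbk1. The genes whose course over the 24 libraries was most like that of Cgas were Vcan (r = 0.930), Il4ra (0.908) and Mmp9 (0.906). For Ddx41 they were Met (0.940), Nxf1 (0.929) and Ddx20 (0.922), and for Tmem173 Lpcat3 (0.898), Mta3 (0.896) and Ttf1 (0.890). For Tbk1 they were Hsf2 (0.954), Tram1 (0.945) and Rnf146 (0.938), and for Ikbke Mcc (0.961), Zc3h12a (0.949) and Lif (0.947). Over the 8 condition means the leading genes were Ube2v1 (r = 0.981) for Cgas, Dapk3 (0.990) for Tbk1, Ttf1 (0.980) for Tmem173, Lif (0.977) for Ikbke and Nxf1 (0.979) for Ddx41. The order thus depends on the points used, and for Cgas and Tbk1 none of the 3 genes named over libraries is among the first 3 over condition means.

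Genes beside the members on the chromosome mostly had other courses. Xpot, which lies 593 bases from Tbk1 and encodes the exporter of transfer RNA, was lower than WT in 7 of 7 mutants and had r = 0.720 with Tbk1. Its log2 fold change was -1.80 in 6KO1, where Tbk1 had -0.48, and -0.78 in E1E2 G9Gl, where Tbk1 had 0.16. Rassf3, on the other side of Tbk1, passed in 3 of 7 comparisons (r = 0.0303 with Tbk1). Beside Cgas, Ddx43 passed in 1 and Mto1 in 3 of 7 comparisons (r = -0.0249 and -0.127). Beside Tmem173, 1700066B19Rik passed in 1 and Ube2d2a in 2 (r = 0.0633 and 0.0631), and beside Ikbke, Rassf5 passed in 4 and Srgap2 in 0 (r = 0.127 and -0.0335). Beside Ddx41, Dok3 and Fam193b passed in 0 of 7 by the edgeR test (r = -0.181 and 0.312). Antisense genes overlap exons of 3 members: Gm8093 shares 201 bases with Cgas and had at most 4 counts in a library, Gm28914 and Gm28913 share 159 and 65 bases with Ikbke and had at most 2 and 5 counts, and Gm46416 shares 467 bases with Ddx41 and has no entry in the counts.

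Around the members, 71 genes of the pathway were followed in 7 lists, of which 68 were tested. Against WT, 15 were higher and 8 lower for E1, 31 and 17 for E1 S1S2, 35 and 19 for 6KO1, 25 and 13 for E2, 34 and 11 for E1E2, 35 and 15 for E1E2 G9Gl, and 37 and 14 for 6KO2. The E1 counts became 9 higher and 5 lower without E1 replicate 1, and 5 lower without E1 replicate 3. The median log2 fold change of the 68 was 0.11, 0.15, 0.29, 0.20, 0.21, 0.26 and 0.30 in these comparisons, beside -0.0053, -0.0048, 0.061, -0.013, -0.0024, 0.0088 and 0.041 for all tested genes. Of all tested genes, 6.72% were higher and 6.6% lower for E1, 19.9% and 21.9% for E1 S1S2, 35.9% and 30.3% for 6KO1, and 12.5% and 14.4% for E2. The shares were 16.3% and 16.9% for E1E2, 30.9% and 28.3% for E1E2 G9Gl, and 29.5% and 25% for 6KO2, and the counts of each list below are to be read beside them. The lists are described with the genes that moved most in 6KO1 among those that passed in both 6KO lines in the same direction, so their size there follows from the choice.

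Among the 8 tested enzymes that limit cytosolic DNA or cGAMP, the numbers higher and lower were 1 and 1 for E1, 3 and 1 for E1 S1S2, 4 and 2 for 6KO1, 1 and 1 for E2, 3 and 1 for E1E2, and 2 and 2 for both E1E2 G9Gl and 6KO2. Dnase2a, a lysosomal DNase, rose by 1.51 (SE 0.074) in 6KO1 and 0.99 (SE 0.075) in 6KO2. Enpp1, which hydrolyses cGAMP outside the cell, had -4.32 (SE 0.43) and -1.59 (SE 0.31), with 6 counts in all in the 3 libraries of 6KO1. Of the 7 tested genes of cGAMP transport, 2 and 1 were higher and lower for E1, 3 and 2 for E1 S1S2, 2 and 3 for 6KO1, 1 and 1 for E2, 4 and 1 for E1E2, 3 and 2 for E1E2 G9Gl, and 4 and 1 for 6KO2. Gja1, a gap junction channel, had -2.04 (SE 0.074) in 6KO1 and -0.78 (SE 0.072) in 6KO2, while the volume-regulated channel subunits Lrrc8d (0.66 and 1.13) and Lrrc8a (0.55 and 0.57) rose.

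Among the 12 other DNA sensors, the numbers higher and lower were 1 and 3 for E1, 3 and 7 for E1 S1S2, 4 and 6 for 6KO1, 2 and 8 for E2, 2 and 7 for E1E2, 4 and 6 for E1E2 G9Gl, and 3 and 6 for 6KO2, with medians between -0.29 for E1 S1S2 and -0.15 for 6KO1. Ifi204 rose by 4.81 (SE 0.12) in 6KO1 and 2.91 (SE 0.12) in 6KO2, Zbp1 by 4.73 (SE 0.27) and 2.37 (SE 0.32), and Aim2, the inflammasome sensor of DNA, by 3.40 (SE 0.14) and 2.58 (SE 0.14). Aim2 was lower than WT in other mutants, at -2.72 (SE 0.22, adjusted p = 4.3e-10) for E1 S1S2, -4.32 (SE 0.29, adjusted p = 5.9e-11) for E2 and -4.18 (SE 0.28, adjusted p = 4.3e-11) for E1E2 by edgeR. Its mean normalized count was 102 for WT, 15.7 for E1 S1S2, 5.06 for E2 and 5.38 for E1E2, beside 1086 for 6KO1, 799 for E1E2 G9Gl and 611 for 6KO2. Aim2 had 14 raw counts in all for E2 and 16 for E1E2, which makes its folds there uncertain.

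Of 15 genes of STING trafficking and turnover, 2 and 3 were higher and lower for E1, 6 and 5 for E1 S1S2, 8 and 5 for 6KO1, 7 and 3 for E2, 6 and 2 for E1E2, 11 and 1 for E1E2 G9Gl, and 8 and 2 for 6KO2. Npc1, a lysosomal cholesterol transporter, rose by 1.85 (SE 0.064) in 6KO1 and 1.22 (SE 0.064) in 6KO2, and Stim1, a calcium sensor of the endoplasmic reticulum that retains STING there, by 1.53 (SE 0.095) and 0.73 (SE 0.096). Insig1, a regulator of sterol synthesis, had -2.89 (SE 0.069) and -2.35 (SE 0.068). Tmem173 itself moved in opposite directions in these lines.

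Of 10 adaptors and regulators of TBK1 and IKKepsilon, 1 was higher and 0 lower for E1, 4 and 1 for E1 S1S2, 5 and 1 for 6KO1, 4 and 0 for E2, 5 and 0 for E1E2, 5 and 1 for E1E2 G9Gl, and 7 and 2 for 6KO2. Optn, an adaptor that binds TBK1, rose by 3.25 (SE 0.087) in 6KO1 and 3.06 (SE 0.088) in 6KO2, Tnfaip3, an inhibitor of NF-kappaB signalling, by 1.75 (SE 0.19) and 2.67 (SE 0.19), and its partner Tnip1 by 1.04 (SE 0.13) and 1.62 (SE 0.13). Tnfaip3 had 728, 609 and 641 normalized counts in WT, 1864, 848 and 1696 in E2 and 3562, 5518 and 3472 in 6KO2, so that E2 replicate 2 was the lowest E2 library here as for Ikbke, and 6KO2 replicate 2 the highest 6KO2 library in both genes.

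Of 7 factors activated downstream, 2 were higher and 0 lower for E1, 3 and 1 for E1 S1S2, 3 and 2 for 6KO1, 5 and 0 for both E2 and E1E2, 3 and 2 for E1E2 G9Gl, and 4 and 1 for 6KO2. Irf7, itself an interferon-stimulated gene, had 19.2, 16.4 and 17.1 normalized counts in WT, 2328, 2354 and 2389 in 6KO1 and 304, 167 and 335 in 6KO2, and rose by 7.06 (SE 0.33) and 3.93 (SE 0.37). Rela (0.90 and 1.25) and Nfkb2 (0.77 and 1.15), subunits of NF-kappaB, rose in both. In E1E2 G9Gl, Nfkb2 had -0.51 against WT (SE 0.12, adjusted p = 6.8e-04), while Rela had 0.41 (SE 0.095, adjusted p = 5.5e-04), Nfkb1 0.30 (SE 0.14, adjusted p = 0.0542) and Tnfaip3 1.75 (SE 0.19, adjusted p = 2.7e-08). Irf3, the substrate of TBK1, did not pass in 6 of 7 comparisons and had -0.44 (SE 0.07, adjusted p = 8.3e-06) in 6KO2. The values in E1E2 G9Gl and those of Irf3 were picked after they were seen.

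The outputs of interferon signalling were 10 genes, of which Ifnb1 was too low to be tested. Ifnb1 had 0 counts in each library of WT, E1, E1 S1S2 and E2, and 15 counts in all for 6KO1, 7 for E1E2, 4 for E1E2 G9Gl and 7 for 6KO2, so that no fold is given. Of the other 9, 6 were higher for E1, 9 for E1 S1S2, 9 for 6KO1, 5 for E2, 9 for E1E2, 7 for E1E2 G9Gl and 9 for 6KO2, and 1, Ccl5 for E1E2 G9Gl, was lower. The medians were 1.31, 2.28, 3.85, 1.502, 3.13, 1.96 and 1.71. Single libraries stood apart in these 9 genes. E2 replicate 2 was the lowest E2 library and 6KO2 replicate 2 the lowest 6KO2 library in each of them. WT replicate 2 was the highest WT library in 7 of the 9. In what share of all tested genes these libraries were lowest or highest was not counted. The counts and medians of the outputs were not refitted without these libraries. Usp18, which removes ISG15 and restrains interferon receptor signalling, rose by 8.51 (SE 0.45) in 6KO1 and 5.42 (SE 0.55) in 6KO2, Ifi44 by 7.01 (SE 0.35) and 3.08 (SE 0.46) and Ifit3 by 4.70 (SE 0.31) and 2.56 (SE 0.32). WT held 14 counts of Usp18 over its 3 libraries, which makes its fold uncertain. As background, RNA sensors and interferon itself also raise these genes.

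**Figure D5:**
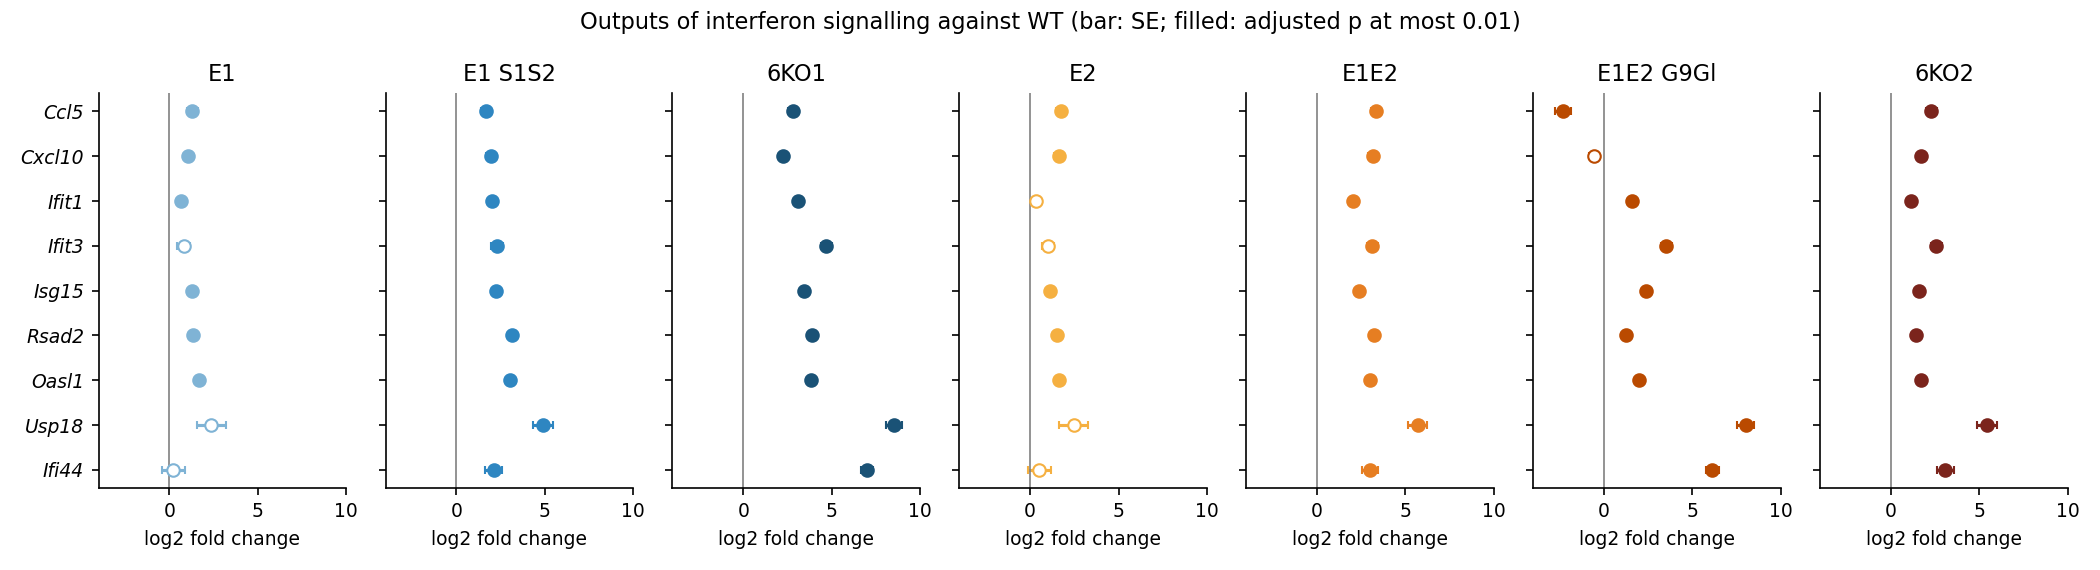
Log2 fold change against WT of the 9 tested outputs of interferon signalling in each mutant condition, with the SE as bars and filled points for an adjusted p of at most 0.01 (edgeR). All 9 are to the right of 0 and filled in E1 S1S2, 6KO1, E1E2 and 6KO2, while in E1E2 G9Gl Ccl5 (-2.31) and Cxcl10 (-0.59) are to the left.

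The outputs did not all go the same way in E1E2 G9Gl. Of Ifit1, Ifit3, Isg15, Rsad2, Oasl1, Usp18, Ifi44, Ccl5 and Cxcl10, 6 (Ifit1, Ifit3, Isg15, Oasl1, Usp18 and Ifi44) were higher in every E1E2 G9Gl library than in every 6KO2 library, 2 (Ccl5 and Cxcl10) were lower in every library and Rsad2 overlapped. Compared with E1E2, 3 (Ifit3, Usp18 and Ifi44) were higher in every library, 5 (Ifit1, Rsad2, Oasl1, Ccl5 and Cxcl10) were lower in every library and Isg15 overlapped. The share of all tested genes whose libraries lie apart in this way was not computed. By the edgeR test, 43.6% of all tested genes differed between E1E2 G9Gl and 6KO2, and 53.4% between E1E2 and E1E2 G9Gl. By library, Ccl5 had 115, 139 and 105 normalized counts in WT, 1088, 1268 and 1244 in E1E2, 24.8, 21.97 and 25.9 for E1E2 G9Gl and 655, 434 and 669 for 6KO2. Cxcl10 had 1038, 1563 and 1161 in WT, 13465, 10018 and 10022 in E1E2, 765, 854 and 877 for E1E2 G9Gl and 3986, 3873 and 4502 for 6KO2. Rsad2, an antiviral enzyme and no chemokine, had 269.6, 267 and 310.1 in WT, 3157, 2378 and 2298 in E1E2, 673, 663 and 654 for E1E2 G9Gl and 705, 536 and 975 for 6KO2. Usp18 had 243, 258 and 235 in E1E2, 1258, 1243 and 1149 for E1E2 G9Gl and 199.6, 84.6 and 325 for 6KO2, beside 1582, 1777 and 1835 for 6KO1. Whether the outputs differ from each other in this was not tested. Ccl5, Cxcl10, Rsad2 and Usp18 were picked for this description after their values were seen.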

How the data were processed

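Gene and repeat counts are as deposited by the authors, made from stranded libraries with cutadapt 1.8.1, STAR 2.5.2b and TEtranscripts per the submitters' processing notes, and the strand setting of the counting was not stated. The counts hold 47937 genes and 1445 repeat elements for 24 libraries, with 0 columns without a sample. A malformed entry, 0.00175 to 0.00271% of a library's counts, was left out. In R 4.3.3, genes were filtered with filterByExpr by condition, scaled with TMM and tested with edgeR 4.0.16 (quasi-likelihood F-test with limma 3.58.1, Benjamini-Hochberg adjustment over 18565 genes, threshold 0.01). The SE is the log2 fold change over the square root of F. Tests are two-sided, and the steps were tested on simulated data.

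The members and lists were chosen with earlier results of these data known. Named are the 5 members, the 6 targeted genes, the marker genes and, of each context list, up to 3 genes with the largest change in 6KO1 among those that passed in both 6KO lines with the same sign. Among the enzymes that limit cytosolic DNA or cGAMP only 2 qualified. Also named are the 3 genes most correlated with each member (log2 CPM, prior count 2) and the nearest tested gene on each side. Alternatives were DESeq2 1.42.0, RLE factors, scaling with repeats, no filter, a mean above 100 counts, fits of 6 libraries, a replicate block, other thresholds and each library left out. The longest protein-coding transcript, and leaving out WT replicate 2 and E2 replicate 2 together, were chosen after seeing the data. Figures were drawn with matplotlib 3.10.9.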

Additional observations from a re-analysis of the deposited data

Results flagged for a closer look

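The effect of 4-OHT on Ikbke differed between the lines, as a tested difference between groups. In the Eset2-mutant clone, E1E2 against E2 was 0.78, and in the parent line, E1 against WT was -0.29, a difference of 1.07 (SE 0.27, adjusted p = 0.00707 by edgeR's quasi-likelihood test with Benjamini-Hochberg adjustment). The E1E2 against E2 value was 0.49 without E2 replicate 2 and then did not pass (adjusted p = 0.0110), nor did it in a fit of only its 6 libraries (0.77, adjusted p = 0.0400). The E1 against WT value did not pass and lay between -0.45 and -0.15 with single libraries left out. Ikbke had 652, 315 and 683 normalized counts in E2 and 949.7, 841 and 1013 in E1E2, beside 419, 274 and 357 in WT and 277, 305 and 272 in E1. The call of the difference was lost without WT replicate 1 (0.93, adjusted p = 0.0228) or 3 (1.05, 0.0153), and without E1 replicate 1 (1.05, 0.0187), 2 (1.12, 0.0113) or 3 (1.04, 0.0177). It was also lost without E1E2 replicate 1 (1.06, 0.0159) or 3 (1.01, 0.0207), or without E1E2 G9Gl replicate 3 (1.07, 0.01003). Clone and Eset2 genotype cannot be told apart.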

How the results depend on the processing

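The log2 fold changes of the members, 70 in all over comparisons, steps and the difference of 4-OHT effects, were refitted under each alternative with edgeR or DESeq2. Direction and side of the threshold were kept by 67 with DESeq2, 68 with RLE factors, 66 with TMM factors from genes and repeats together, 59 without a filter, 58 with a mean above 100 counts, 50 of 65 in fits of 6 libraries and 54 without both WT replicate 2 and E2 replicate 2. With single libraries left out, 1560 of 1680 values were kept, 75 lost a call, 19 gained one and 26 changed sign. Where a value below changed, the cause was not tested, unless fewer genes or samples are named. Depth limits Ifnb1, Enpp1 in 6KO1, Usp18 in WT and Aim2 in E2 and E1E2, which had few counts.

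With DESeq2, new calls came for Cgas in E2 against WT (0.22, adjusted p = 0.00624), Tbk1 in E1E2 G9Gl against WT (0.19, adjusted p = 0.00124) and Ikbke in E1 S1S2 against E1 (0.62, adjusted p = 0.00615). The counts with DESeq2 became 1 member higher in E1E2 G9Gl and 2 members that passed in E1 S1S2 against E1. Among the context genes, 0 enzymes limiting DNA or cGAMP were lower in E1 and 2 adaptors of the kinases higher, and of cGAMP transport 2 were lower in E2 and 5 higher in E1E2 G9Gl.

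With RLE factors, new calls came for Cgas in E2 against WT (0.22, adjusted p = 0.00926) and Tbk1 in E1E2 G9Gl against WT (0.19, adjusted p = 0.00360). The number of members higher in E1E2 G9Gl was then 1.

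With TMM factors from genes and repeats together, calls were lost for Tmem173 in 6KO1 against E1 S1S2 (0.18, adjusted p = 0.0488). With TMM factors from genes and repeats together, new calls came for Cgas in E2 against WT (0.22, adjusted p = 0.00657) and Ddx41 in 6KO2 against WT (-0.21, adjusted p = 0.00395). With TMM factors from genes and repeats together, the sign turned for Cgas in 6KO1 against E1 S1S2 (-0.021, adjusted p = 0.779). The count in 6KO2 was then 2 members lower, and 1 passed in 6KO1 against E1 S1S2.

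Without a filter on low counts, calls were lost for Cgas in E1 S1S2 against WT (0.24, adjusted p = 0.0170), Cgas in 6KO1 against WT (0.22, adjusted p = 0.0189) and Tbk1 in E1E2 against WT (-0.20, adjusted p = 0.0391). Further such were Cgas in 6KO2 against WT (0.25, adjusted p = 0.0101), Tmem173 in 6KO1 against E1 S1S2 (0.18, adjusted p = 0.0870) and Tbk1 in 6KO2 against E1E2 G9Gl (-0.22, adjusted p = 0.0153). Without a filter on low counts, new calls came for Ikbke in E1 S1S2 against WT (0.33, adjusted p = 0.00360), Ikbke in E1 S1S2 against E1 (0.62, adjusted p = 7.3e-09), Ikbke in 6KO1 against E1 S1S2 (0.40, adjusted p = 9.6e-05) and Ikbke in 6KO1 against 6KO2 (-0.49, adjusted p = 8.2e-07). Without a filter on low counts, the sign turned for Cgas in 6KO1 against E1 S1S2 (-0.017, adjusted p = 0.984). The counts were then 0 members lower in E1E2, 1 higher in 6KO2, and 2 that passed in E1 S1S2 against E1.

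With only genes of a mean above 100 counts, calls were lost for Cgas in E1E2 G9Gl against WT (-0.20, adjusted p = 0.0119). With only genes of a mean above 100 counts, new calls came for Cgas in E2 against WT (0.24, adjusted p = 0.00603), Tbk1 in E1E2 G9Gl against WT (0.23, adjusted p = 1.4e-04) and Ikbke in E1 S1S2 against E1 (0.64, adjusted p = 0.00998). Further such were Ddx41 in 6KO1 against E1 S1S2 (0.19, adjusted p = 0.00647), Tbk1 in E1E2 against E2 (-0.18, adjusted p = 0.00814) and Ddx41 in 6KO1 against 6KO2 (0.19, adjusted p = 0.00738). With only genes of a mean above 100 counts, the sign turned for Ddx41 in 6KO1 against WT (0.061, adjusted p = 0.330), Tbk1 in E2 against WT (0.015, adjusted p = 0.815) and Ddx41 in E1E2 against WT (0.014, adjusted p = 0.853). Further such were Tmem173 in E1E2 G9Gl against WT (0.037, adjusted p = 0.632) and Cgas in 6KO1 against 6KO2 (0.027, adjusted p = 0.733). The counts were then 1 member higher and 1 lower in E1E2 G9Gl and 2 that passed in E1 S1S2 against E1, and of all tested genes 4231 were higher in 6KO1, where fewer genes are tested.

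In fits of only the 6 libraries compared, calls were lost for Cgas in E1 against WT (0.40, adjusted p = 0.0259), Cgas in E1 S1S2 against WT (0.26, adjusted p = 0.0358), Cgas in 6KO1 against WT (0.26, adjusted p = 0.0188) and Tmem173 in E2 against WT (0.46, adjusted p = 0.0185). Further such were Ikbke in E2 against WT (0.67, adjusted p = 0.127), Tmem173 in E1E2 against WT (0.33, adjusted p = 0.0262), Tbk1 in E1E2 against WT (-0.17, adjusted p = 0.129) and Cgas in E1E2 G9Gl against WT (-0.25, adjusted p = 0.0208). Further such were Cgas in 6KO2 against WT (0.28, adjusted p = 0.0193) and Ikbke in E1E2 against E2 (0.77, adjusted p = 0.0400). In fits of only the 6 libraries compared, new calls came for Ikbke in E1 S1S2 against E1 (0.62, adjusted p = 3.8e-04), Ikbke in 6KO1 against E1 S1S2 (0.43, adjusted p = 3.0e-04) and Ikbke in 6KO1 against 6KO2 (-0.49, adjusted p = 8.5e-05). In fits of only the 6 libraries compared, the sign turned for Tbk1 in E2 against WT (0.015, adjusted p = 0.924) and Ddx41 in E1E2 against WT (0.0073, adjusted p = 0.951). The counts of members were then 0 higher for E1, E1 S1S2 and E2 alike and 1 for 6KO2. They were 0 lower in E1E2 and 1 in E1E2 G9Gl, and 2 passed in E1 S1S2 against E1 and 1 in E1E2 against E2. These fits use fewer samples, and the difference of 4-OHT effects cannot be fitted in them.

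Without WT replicate 2 and E2 replicate 2 together, calls were lost for Cgas in E1 S1S2 against WT (0.19, adjusted p = 0.0124) and Tbk1 in E1E2 against WT (-0.11, adjusted p = 0.0669). Without WT replicate 2 and E2 replicate 2 together, new calls came for Tmem173 in E1 against WT (0.30, adjusted p = 0.00186), Ikbke in E1 against WT (-0.45, adjusted p = 0.00373), Tmem173 in E1 S1S2 against WT (0.25, adjusted p = 0.00359) and Tbk1 in E1E2 G9Gl against WT (0.24, adjusted p = 5.2e-05). Further such were Ikbke in E1 S1S2 against E1 (0.61, adjusted p = 9.5e-06), Ikbke in 6KO1 against E1 S1S2 (0.45, adjusted p = 8.5e-05), Tbk1 in E1E2 against E2 (-0.20, adjusted p = 0.00260) and Ikbke in 6KO1 against 6KO2 (-0.48, adjusted p = 3.2e-05). Further such were Tmem173 in the difference of 4-OHT effects (-0.37, adjusted p = 0.00782) and Tbk1 in the difference of 4-OHT effects (-0.31, adjusted p = 0.00127). Without WT replicate 2 and E2 replicate 2 together, the sign turned for Tbk1 in E1 S1S2 against WT (0.0056, adjusted p = 0.947), Tbk1 in E2 against WT (0.093, adjusted p = 0.175), Tmem173 in E1E2 G9Gl against WT (0.056, adjusted p = 0.489) and Tbk1 in 6KO2 against WT (0.025, adjusted p = 0.648). The counts of members were then 2 higher and 1 lower in E1, 0 lower in E1E2 and 1 higher in E1E2 G9Gl, with 2 that passed in E1 S1S2 against E1 and 3 in the difference of 4-OHT effects. This alternative was chosen after seeing the data.

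With the replicate number as a block, calls were lost for Tmem173 in 6KO1 against E1 S1S2 (0.23, adjusted p = 0.0101). With the replicate number as a block, new calls came for Ikbke in E1 S1S2 against E1 (0.60, adjusted p = 0.00943). The count that passed was then 2 in E1 S1S2 against E1 and 1 in 6KO1 against E1 S1S2. It changed no other call. The replicate numbers do not pair the libraries: over 84 pairs of same-numbered libraries the median correlation of deviations from the condition means was 0.0026, between -0.29 and 0.24, with 6 above 0.1.

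With a fold of at least 2 required, 1 member each was higher in E1E2 and 6KO2, 0 in E1, E1 S1S2, 6KO1 and E2, and 0 lower in 6KO1, E1E2, E1E2 G9Gl and 6KO2. By steps 1 passed each from E1E2 to E1E2 G9Gl, from there to 6KO2 and between the 6KO lines, and 0 from E1 to E1 S1S2, from there to 6KO1 and from E2 to E1E2. At an adjusted p of at most 0.05, 1 member was lower in E1 S1S2, 1 in E2 and 2 in 6KO2, and 1 was higher in E1E2 G9Gl. By steps 3 then passed from E1 to E1 S1S2, 4 from there to 6KO1, 4 between the 6KO lines and 2 in the difference of 4-OHT effects. Cgas in E2 against WT (adjusted p = 0.0118 by edgeR) and Tbk1 from E2 to E1E2 (adjusted p = 0.0308) passed at that threshold as well. The shares of all tested genes at 0.05, and by the fold rule between steps, were not computed, so these counts lack a background. At 0.01 the shares were already 33.5% from E1 to E1 S1S2, 53.3% from there to 6KO1 and 49.2% between the 6KO lines. For the difference of 4-OHT effects the share was 8.89%.

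Per kilobase of the longest protein-coding transcript, a length chosen after seeing the data, the level was 13.5 for Tmem173, 28.1 for Tbk1, 6.65 for Ikbke and 16.0 for Ddx41. The ratio of Ikbke to Tbk1 was then 0.147 for WT, 0.116 for E1, 0.189 for E1 S1S2, 0.343 for 6KO1, 0.227 for E2, 0.439 for E1E2, 0.148 for E1E2 G9Gl and 0.356 for 6KO2, since that length is shorter.

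Left out 1 at a time, single libraries changed Tmem173 in E1 against WT (0.12 to 0.30, WT replicate 2), Tbk1 in E1 against WT (-0.022 to 0.11, WT replicates 1 and 3) and Cgas in E1 S1S2 against WT (0.18 to 0.26, WT replicates 1 and 2 and E1 S1S2 replicates 1 and 2). Ranges and libraries were also Tmem173 in E1 S1S2 against WT (0.076 to 0.25, WT replicate 2), Tbk1 in E1 S1S2 against WT (-0.12 to 0.0061, WT replicate 2) and Cgas in E2 against WT (0.16 to 0.27, WT replicate 3 and E2 replicate 2). Next came Tbk1 in E2 against WT (-0.061 to 0.069, WT replicate 2, 6KO1 replicates 1, 2 and 3, E2 replicate 2 and E1E2 G9Gl replicates 2 and 3), Ikbke in E2 against WT (0.45 to 0.94, all but WT replicate 1 and E2 replicate 2) and Tmem173 in E1E2 against WT (0.24 to 0.41, WT replicate 1). Others were Tbk1 in E1E2 against WT (-0.24 to -0.11, all but WT replicate 1, WT replicate 3, E1 replicate 1, E1 replicate 3, E1 S1S2 replicate 2 and E2 replicate 2), Ddx41 in E1E2 against WT (-0.032 to 0.034, WT replicate 1 and E1E2 replicate 2) and Tmem173 in E1E2 G9Gl against WT (-0.12 to 0.057, WT replicate 2). Further ranges were Tbk1 in E1E2 G9Gl against WT (0.11 to 0.24, WT replicate 2 and 6KO1 replicates 1, 2 and 3), Tbk1 in 6KO2 against WT (-0.11 to 0.025, WT replicate 2) and Ddx41 in 6KO2 against WT (-0.22 to -0.13, E1E2 G9Gl replicate 3 and 6KO2 replicate 2). More were Tmem173 in E1 S1S2 against E1 (-0.12 to 0.032, E1 replicate 3), Ikbke in E1 S1S2 against E1 (0.50 to 0.70, WT replicates 1 and 2 and E2 replicates 2 and 3) and Cgas in 6KO1 against E1 S1S2 (-0.019 to 0.072, E1 S1S2 replicate 3 and 6KO1 replicate 1). Ranges and libraries were also Tmem173 in 6KO1 against E1 S1S2 (0.20 to 0.25, all but WT replicate 1, WT replicate 2, E1 replicate 2, E1 replicate 3, E2 replicate 2 and E2 replicate 3), Ikbke in 6KO1 against E1 S1S2 (0.36 to 0.56, E2 replicate 2) and Tbk1 in E1E2 against E2 (-0.20 to -0.16, WT replicate 2). Next came Ikbke in E1E2 against E2 (0.49 to 0.97, E2 replicate 2 and E1E2 replicates 1 and 3), Tbk1 in 6KO2 against E1E2 G9Gl (-0.24 to -0.20, 6KO2 replicate 1) and Cgas in 6KO1 against 6KO2 (-0.045 to 0.021, 6KO1 replicate 2 and 6KO2 replicate 3). Others were Ikbke in 6KO1 against 6KO2 (-0.56 to -0.43, E2 replicate 2), Cgas in the difference of 4-OHT effects (-0.089 to 0.022, WT replicate 2, E2 replicate 3 and E1E2 replicate 2) and Tmem173 in the difference of 4-OHT effects (-0.42 to -0.24, WT replicate 2). Further ranges were Tbk1 in the difference of 4-OHT effects (-0.28 to -0.15, WT replicate 2), Ikbke in the difference of 4-OHT effects (0.78 to 1.26, WT replicates 1 and 3, E1 replicates 1, 2 and 3, E1E2 replicates 1 and 3 and E1E2 G9Gl replicate 3) and Ddx41 in the difference of 4-OHT effects (-0.032 to 0.036, WT replicate 3, E1 replicate 3, E2 replicate 3 and E1E2 replicate 2). More were members higher in E1 against WT (1 to 2, WT replicate 2), members higher in E1 S1S2 against WT (0 to 1, WT replicate 1 and E1 S1S2 replicates 1 and 2) and members higher in E2 against WT (1 to 3, all but WT replicate 1, WT replicate 3 and E2 replicate 2). Ranges and libraries were also members lower in E1E2 against WT (0 to 1, all but WT replicate 1, WT replicate 3, E1 replicate 1, E1 replicate 3, E1 S1S2 replicate 2 and E2 replicate 2), members higher in E1E2 G9Gl against WT (0 to 1, WT replicate 2 and 6KO1 replicates 1, 2 and 3) and members lower in 6KO2 against WT (1 to 2, E1E2 G9Gl replicate 3 and 6KO2 replicate 2). Next came members that pass in E1 S1S2 against E1 (1 to 2, WT replicates 1 and 2 and E2 replicates 2 and 3), members that pass in 6KO1 against E1 S1S2 (1 to 3, all but WT replicate 1, WT replicate 2, E1 replicate 2, E1 replicate 3, E2 replicate 2 and E2 replicate 3) and members that pass in E1E2 against E2 (1 to 3, E2 replicate 2 and E1E2 replicates 1 and 3). Others were members that pass in the difference of 4-OHT effects (0 to 3, WT replicates 1, 2 and 3, E1 replicates 1, 2 and 3, E1E2 replicates 1 and 3 and E1E2 G9Gl replicate 3), all context genes higher in E1 against WT (9 to 19, E1 replicate 1) and all context genes lower in E1 against WT (5 to 10, E1 replicates 1 and 3). Further ranges were fold of the Ikbke to Tbk1 ratio over WT in E1E2 G9Gl (0.873 to 1.18, WT replicate 2). For counts, the libraries named are those that moved the count by over 1.5 times, so a step from 2 to 3 is left out of these lists. The upper end of 3 came without E2 replicate 2 for members higher in E2 against WT and for members that pass in 6KO1 against E1 S1S2, and without WT replicate 2 for members that pass in E1E2 against E2. By the same rule unlisted, members higher in E1E2 against WT went from 3 to 2 without WT replicate 1, members that pass in 6KO2 against E1E2 G9Gl from 5 to 4 without 6KO2 replicate 1, and members that pass in 6KO1 against 6KO2 from 2 to 3 without E2 replicate 2.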

Other observations

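E2 replicate 2 was the lowest of the E2 libraries in 9 of 9 interferon outputs tested, as it was for Ikbke. Ccl5, for example, had 601, 157 and 476 normalized counts in E2 replicates 1, 2 and 3, Cxcl10 5337, 1549 and 4857, and Usp18 38.1, 5.38 and 40.4. WT replicate 2 was the highest of the WT libraries in 7 of these 9 outputs and the lowest in Ikbke. In 6KO2, replicate 2 was lowest in 10 of 10 outputs with Ifnb1 included, while its Ikbke count, 886, was the highest of the 6KO2 libraries. These genes were picked after their values were seen, and the cause was not tested.

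Trex1, the DNase that degrades cytosolic DNA, was also picked after its values were seen. It rose by 1.24 (SE 0.13, adjusted p = 5.2e-08 by edgeR) in E1E2 and by 0.56 (adjusted p = 5.8e-04) in 6KO1, and had 0.054 in E1E2 G9Gl, where it did not pass. Its mean normalized count was 125 for WT, 171 for E1, 169 for E1 S1S2 and 186 for 6KO1. It was 163 for E2, 297 for E1E2, 130 for E1E2 G9Gl and 157 for 6KO2. Trex1 was not among the 2 enzymes of its list that passed in both 6KO lines in the same direction.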
